A study of Manihot esculenta with 9 samples.

Results

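Lipid transfer proteins are the 105 of the 33033 genes in the authors' deposited cassava expression table whose description holds the words lipid transfer protein, with or without a hyphen. By their descriptions, 86 belong to the bifunctional inhibitor, lipid transfer protein and seed storage superfamily (bifunctional members below), 13 carry a lipid transfer protein name, 12 of them with the number of an Arabidopsis lipid transfer protein (LTP), and 6 are glycolipid transfer proteins. The last of these share the word and a role in moving lipids but have another fold. Members were chosen by description alone, and the nearest Arabidopsis gene that the table gives is used here to group them.

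Plant LTPs are small secreted proteins whose cysteines form disulfide bridges around a hydrophobic tunnel that holds a lipid tail. In Arabidopsis, several are made in the epidermis and act in the assembly of the cuticle, and others act in defence signalling or in the cell wall. A branch is tied to the outer face of the plasma membrane by a glycosylphosphatidylinositol (GPI) anchor and is known for the export of wax, cutin and suberin monomers. Glycolipid transfer proteins work inside the cell, where they move glycosphingolipids or ceramide-1-phosphate between membranes.

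RNA-seq was made from mature leaves of wild-type cassava seedlings that had grown from stem cuttings in MS medium, a common plant culture medium, in sterile bottles. The seedlings were 60 days old at treatment, and leaves were taken after 48 h in MS medium alone (MS control), with 50 μmol of abscisic acid (ABA), the hormone of the water-stress response, or with 7% PEG6000, an osmotic agent. The paper gives the amount of ABA per litre. Each group has 3 libraries, which the paper describes as biological replicates. The sources used here do not say whether each came from its own plant, so p-values measure the spread between these libraries. All seedlings were of 1 genotype and 1 time point was sampled, so the values describe cultured leaves at that time only.

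Total counts were 13923803 to 16378389 in the MS control, 14850183 to 15690202 under ABA and 15847859 to 17108746 under PEG. Levels are FPKM, a read density per gene length and sequencing depth that the authors calculated, and can be compared between genes. Changes are log2 fold changes, given ± standard error, from edgeR's quasi-likelihood test on the read counts, and rose or fell is written of a gene with a Benjamini-Hochberg adjusted p under 0.05 over all 23984 genes tested. Directions follow the labels of the libraries. Under PEG, 37 of 52 tested genes described as ABA or water-stress markers fell and 8 rose. If MS control and PEG libraries had exchanged labels, these files could not tell it apart from a fall of these genes under PEG, and every change given for PEG against the MS control would turn and those for ABA would differ.

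Of the 105 members, 31 had no read in any of the 9 libraries and 26 had reads but too few for edgeR's filter, at most 62 over all libraries. The remaining 48 were tested, with 61 to 204102 reads each, and 44 members had a value above 0 in all 9 libraries. A mean of at least 1 FPKM was reached by 43 members in the MS control, 42 with ABA and 39 with PEG. At least 1000 FPKM was reached by 4 members in the MS control, by 4 under ABA and by 0 under PEG.

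Some lipid transfer protein genes were among the most expressed genes of the leaf, and the summed level of the members was higher under ABA and lower under PEG than in the MS control. The sum over the 105 members was 9301, 9220.0 and 8587 FPKM in the MS control, 11122, 11011.5 and 11293 FPKM under ABA and 3392, 3432.5 and 3400.2 FPKM under PEG. The ABA libraries all lay above the MS control and the PEG libraries all lay below it, with no overlap. As a share of all reads, the family made up 0.625 ± 0.0294% (SD, n = 3) in the MS control, 0.776 ± 0.0103% (SD, n = 3) under ABA and 0.244 ± 0.0015% (SD, n = 3) under PEG. The 6 most expressed members held on average 84.8%, 90.3% and 71.9% of the summed FPKM. The sums thus follow few genes.

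**Figure D1:**
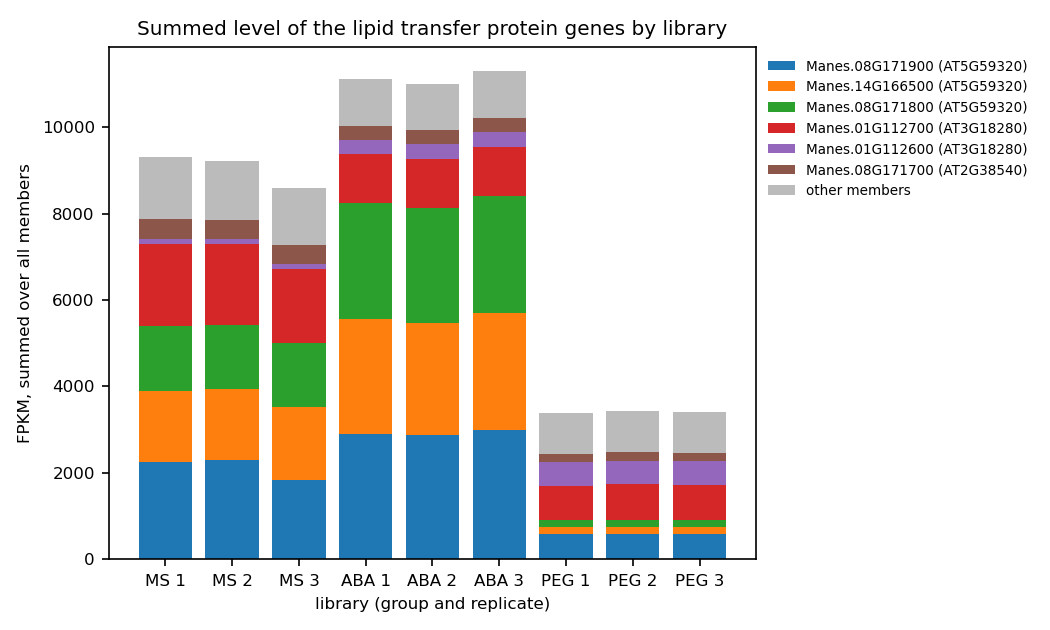
FPKM summed over the 105 lipid transfer protein genes in each of the 9 libraries, with the 6 most expressed members in colour and the others in grey. The ABA libraries reach 11011.5 to 11293 FPKM and the PEG libraries 3392 to 3432.5, and the blue, orange and green blocks of the LTP3 genes shrink most under PEG.

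Under ABA, 20 of the 48 tested members rose and 19 fell, that is 81.2% against 66.3% of all genes tested, of which 32.9% rose and 33.4% fell. At least 2-fold, 13 members rose and 9 fell, 45.8% against 19.4% of all genes (10.6% up and 8.79% down). The median log2 fold change was -0.08 for the members and -0.0042 for all genes, while the median size of the change without its sign was 0.98 and 0.41. About as many members rose as fell, by changes larger than those of the median gene.

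Under PEG, 19 tested members rose and 26 fell, 93.8% against 70.7% of all genes (35.6% up and 35.1% down). At least 2-fold, 13 rose and 21 fell, 70.8% against 22.1% of all genes (12.4% up and 9.72% down). The median log2 fold change was -0.50 for the members and 0.0048 for all genes, and the median size without sign was 1.84 and 0.45. In the direct comparison of PEG with ABA, 15 members were higher and 23 lower under PEG, 79.2% against 74.7% of all genes (39.1% up and 35.6% down). At least 2-fold, 8 were higher and 19 lower, 56.2% against 28.9% of all genes (16% up and 12.9% down). The shares of members are of those that passed the filter on low counts, which a member can pass through 1 group alone.

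**Figure D2:**
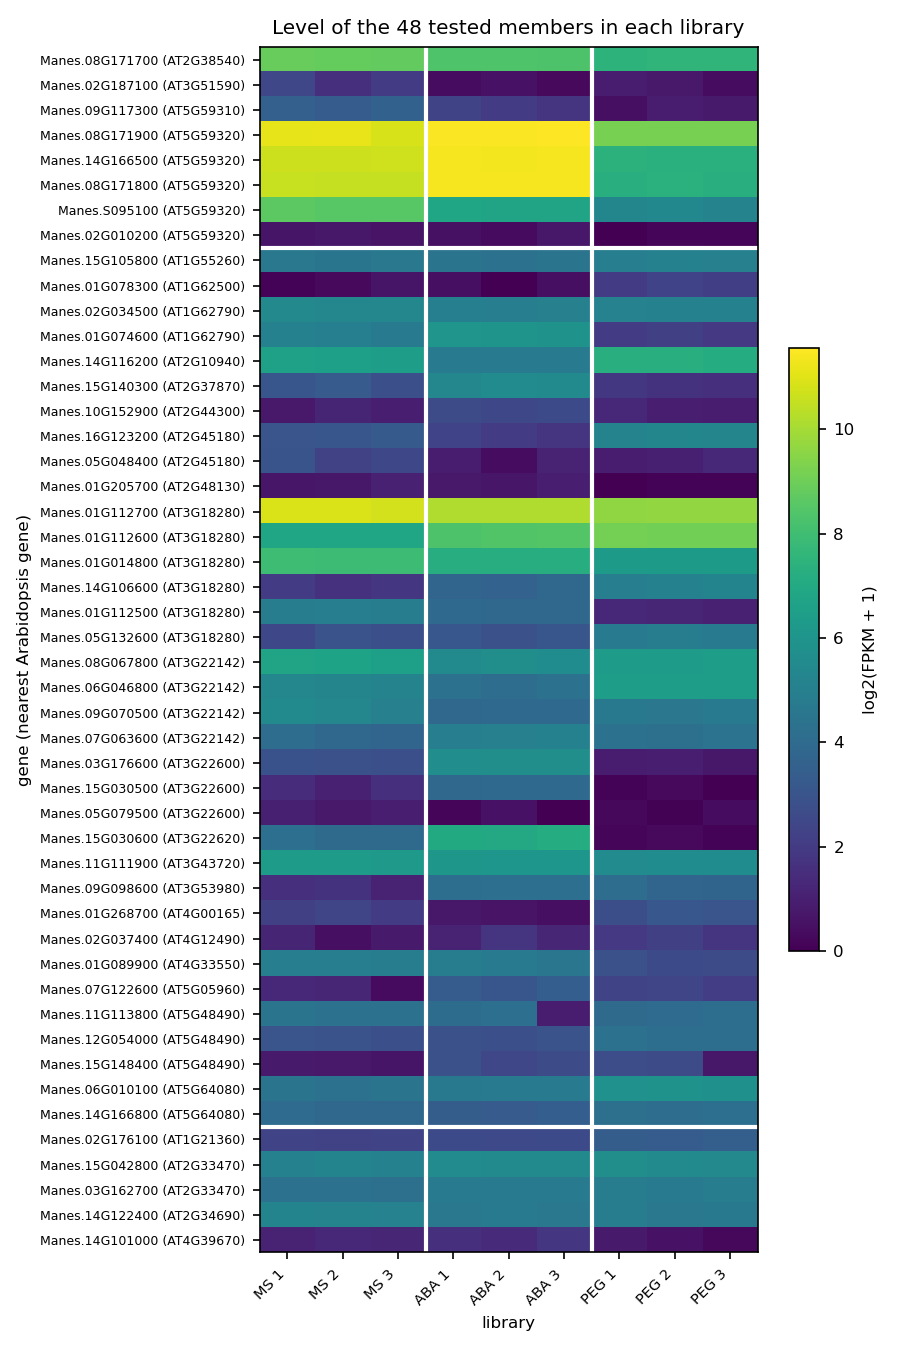
Level of the 48 tested members in each library as log2(FPKM + 1), with white lines between the 3 groups of libraries and between the numbered LTPs at the top, the bifunctional members in the middle and the glycolipid transfer proteins at the bottom. The rows at the top are dark or turn darker under PEG, while rows of the middle block brighten or darken without a common direction, and 2 members with AT5G48490 as nearest gene have a single dark library.

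Directions of the named LTPs and of the bifunctional members were split differently under PEG, and near evenly in both under ABA. All 8 tested named LTPs, 5 of them named LTP3, fell under PEG, while 3 rose and 4 fell under ABA. Of the 35 tested bifunctional members, 16 rose and 16 fell under PEG and 14 rose and 14 fell under ABA. Over all genes tested the split was also close to even, with 35.6% up and 35.1% down under PEG and 32.9% up and 33.4% down under ABA. Median log2 fold changes under PEG were -3.13 for the named LTPs and 0.02 for the bifunctional members, and the difference between these 2 groups was not tested. The summed level of the named LTPs in FPKM was 6120.5 ± 252 (SD, n = 3) in the MS control, 8693 ± 139 (SD, n = 3) with ABA and 1122 ± 14.6 (SD, n = 3) with PEG. For the bifunctional members it was 2823 ± 137, 2346 ± 16.8 and 2177 ± 13.6 FPKM (SD, n = 3 each), in the same order of groups.

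The cell type markers of the leaf moved in the same libraries. Of 67 tested mesophyll markers, genes of the photosystems, their antennae and Rubisco, 57 rose and 2 fell under PEG, while 1 rose and 58 fell under ABA. Their summed level was 11110.0 to 12037 FPKM in the MS control, 4901 to 5026 under ABA and 22805 to 23351 under PEG. Epidermis markers, of which 1 of 8 had no read, summed to 51.6 to 54.9, 66.1 to 67.1 and 195.5 to 204.3 FPKM, in the same order. Of 5 tested, 3 rose and 2 fell under ABA, and 4 rose and 0 fell under PEG. The higher sum under ABA rested on protodermal factor 1 (Manes.01G128300), with 4.40 ± 0.507, 27.9 ± 0.825 and 130.4 ± 4.76 FPKM (SD, n = 3 each). Without the genes of that description, an alternative chosen after seeing the data, the markers summed to 47.2 to 48.4 FPKM in the MS control, 37.2 to 37.5 with ABA and 69.4 to 70.2 with PEG, lower under ABA and still higher under PEG. Both homeodomain GLABROUS 2 genes fell under ABA, with log2 fold changes of -0.45 (edgeR adjusted p = 1.75e-05) for Manes.13G071000 and -0.60 (edgeR adjusted p = 6.61e-08) for Manes.12G075600. The other 2 tested genes of that alternative rose under ABA. Homeodomain GLABROUS 11 (Manes.02G224400) rose by 2.44 (edgeR adjusted p = 4.45e-06), at a mean of 0.201 FPKM in the MS control and 1.04 with ABA. Protodermal factor 2 (Manes.16G011100) rose by 0.44 (edgeR adjusted p = 2.70e-04). The lower sum under ABA thus came from the more expressed GLABROUS 2 genes. Genes of dividing cells, a search for cyclins that also takes in cycling DOF factors, summed to 534.5 to 543.3, 630.0 to 641.3 and 780.3 to 787.2 FPKM. Of 73 tested, 43 rose and 9 fell under ABA, and 54 rose and 10 fell under PEG. Over all genes tested, 32.9% rose and 33.4% fell under ABA and 35.6% rose and 35.1% fell under PEG. Seed markers summed to 174 to 183, 172 to 183 and 90.9 to 97.6 FPKM, with 0 of 10 without a read. Of these only 5 were tested, and 2 rose and 2 fell under ABA and 0 rose and 3 fell under PEG. The lower sum under PEG rested mainly on the oleosin 1 genes Manes.14G039100 (means of 94.2 FPKM in the MS control and 29.3 with PEG) and Manes.06G131000 (19.5 and 0.0852). The oleosin gene Manes.01G021400 did not fall (57.9 and 62.6). The part of these markers in the changes of the members was not tested, and in whole leaves fewer cells of a type and less RNA per cell cannot be told apart.

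In Arabidopsis, LTP1 is an abundant protein of the epidermis, and LTP3 and LTP4 are close relatives of it whose transcripts are induced by ABA and drought. The cassava table has 5 members named LTP3 (nearest gene AT5G59320), and 3 of them had the highest mean FPKM of all members over the 9 libraries. Manes.08G171900 (chromosome 8, 33133020 to 33133907, coordinates of cassava genome v6.1 here and below) had 2257, 2296 and 1820.3 FPKM in the MS control, 2891, 2877 and 2999 with ABA and 575, 584 and 577 with PEG. All ABA libraries were above all MS control libraries, and under PEG the level was a fraction of either. The rise under ABA was 0.52 ± 0.066 (edgeR adjusted p = 2.69e-05) and the change under PEG was -2.01 ± 0.069 (edgeR adjusted p = 2.28e-10). Among all 33033 genes, its mean FPKM ranked 7 in the MS control, 2 with ABA and 42 with PEG.

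The other highly expressed LTP3 genes went the same way, with steeper falls. Manes.14G166500 (chromosome 14, 22526480 to 22527497) had 1642, 1651 and 1691 FPKM in the MS control, 2679, 2596 and 2689 with ABA and 168, 158 and 159.6 with PEG. Manes.08G171800 (chromosome 8, 33128727 to 33129438), next to Manes.08G171900 in gene order, had 1509, 1463 and 1495 FPKM in the MS control, 2678, 2648 and 2713 with ABA and 152, 165 and 157 with PEG. In both genes the groups were far apart and no library crossed into another group. Manes.14G166500 changed by 0.74 ± 0.026 (edgeR adjusted p = 3.08e-10) under ABA and by -3.49 ± 0.028 (edgeR adjusted p = 3.09e-15) under PEG. For Manes.08G171800 these changes were 0.91 ± 0.028 (edgeR adjusted p = 1.07e-10) and -3.37 ± 0.031 (edgeR adjusted p = 8.06e-15). Between PEG and ABA the fall came to 16.4-fold and 16.96-fold in mean FPKM, and their ranks among all genes went from 6 and 5 under ABA to 406 and 424 under PEG.

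Not every LTP3 gene rose under ABA. Manes.S095100, on Scaffold01608 of the assembly, had 404, 373 and 377 FPKM in the MS control, 112, 105 and 105 with ABA and 38.1, 40.3 and 35.2 with PEG. It stepped down from group to group, with changes of -1.78 ± 0.051 (edgeR adjusted p = 6.08e-11) and -3.48 ± 0.056 (edgeR adjusted p = 4.47e-13). The last LTP3 gene, Manes.02G010200, rested on 45, 35 and 7 reads over the libraries of the MS control, ABA and PEG. It fell under PEG by 2.89 ± 0.57 (edgeR adjusted p = 7.71e-04), and under ABA its log2 fold change of -0.30 did not pass (edgeR adjusted p = 0.535). The sources used here do not say how reads that match several copies were counted, and the split of reads among the 5 genes named LTP3, as among other close copies and neighbours, is uncertain.

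LTP1 itself has 1 member, Manes.08G171700 (chromosome 8, 33126295 to 33127154), which lies beside the pair of LTP3 genes on chromosome 8. Its level was 459, 448 and 432 FPKM in the MS control, 326, 325 and 324 with ABA and 176, 189 and 186 with PEG. Unlike its neighbours it was lower in every ABA library than in any MS control library, with a change of -0.39 ± 0.033 (edgeR adjusted p = 6.80e-07). Under PEG it fell as they did, by 1.41 ± 0.033 (edgeR adjusted p = 1.03e-11). The member named LTP4, Manes.09G117300, had 10.6, 9.16 and 11.2 FPKM in the MS control, 4.10, 3.06 and 2.47 with ABA and 0.379, 0.843 and 0.809 with PEG. It was far less expressed than the LTP3 genes and fell under both treatments, with changes of -1.62 ± 0.20 (edgeR adjusted p = 1.90e-05) and -4.04 ± 0.26 (edgeR adjusted p = 5.23e-08). Of the 2 members named LTP12, a gene known from Arabidopsis anthers, 1 had no read, and Manes.02G187100 rested on 92, 10 and 20 reads and fell under both treatments (log2 fold changes -3.11 and -2.46). The 3 members named LTP5 were not tested, and 2 of them had no read.

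Levels within a group are ordered here only where the libraries did not overlap. That covers the spread between libraries, not the uncertain split of reads among close copies and neighbours. In the MS control Manes.08G171900 (1820.3 to 2296 FPKM) overlapped with Manes.01G112700 (1712 to 1890.1 FPKM), and both were followed by Manes.14G166500 and then Manes.08G171800 without overlap. Under ABA Manes.08G171900 was first (2877 to 2999 FPKM), and Manes.14G166500 (2596 to 2689 FPKM) could not be ordered against Manes.08G171800 (2648 to 2713 FPKM). Under PEG the first place passed to Manes.01G112700, a bifunctional member, with 793 to 826 FPKM. Manes.08G171900 (575 to 584 FPKM) and the bifunctional Manes.01G112600 (547 to 567 FPKM) came next, close to each other but without overlap.

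The largest group among the bifunctional members has AT3G18280 as nearest Arabidopsis gene, with 10 members. Of these, 6 were tested and 2 had no read. Under ABA 2 rose and 3 fell, and under PEG 3 rose and 3 fell, so genes with the same nearest Arabidopsis gene did not share a direction. Over all genes tested, 32.9% rose and 33.4% fell under ABA and 35.6% rose and 35.1% fell under PEG. As a group they summed to 2219 ± 103 FPKM (SD, n = 3) in the MS control, 1662 ± 17.2 FPKM (SD, n = 3) with ABA and 1508 ± 10.4 FPKM (SD, n = 3) with PEG.

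A run of 3 of them lies side by side on chromosome 1, from 23302715 to 23310841, and the neighbours differed in level and in direction. Manes.01G112700 (chromosome 1, 23310277 to 23310841) had 1890.1, 1881 and 1712 FPKM in the MS control, 1139, 1149.9 and 1139 with ABA and 793, 826 and 821 with PEG. Manes.01G112600 (chromosome 1, 23305528 to 23306107) had 111, 113 and 111 FPKM in the MS control, 322, 343 and 352 with ABA and 567, 547 and 553 with PEG. Manes.01G112500 (chromosome 1, 23302715 to 23303008) had 28.3, 29.7 and 29.1 FPKM in the MS control, 14.4, 14.1 and 13.7 with ABA and 1.41, 1.39 and 1.07 with PEG. The first and the last were highest in the MS control and lowest under PEG in every library, and the gene between them had the reverse order. Manes.01G112700 changed by -0.61 ± 0.035 (edgeR adjusted p = 2.46e-08) and -1.3 ± 0.035 (edgeR adjusted p = 3.28e-11) under ABA and PEG. In Manes.01G112600 the changes were 1.67 ± 0.036 (edgeR adjusted p = 7.12e-12) and 2.18 ± 0.037 (edgeR adjusted p = 6.55e-13). For Manes.01G112500 they were -0.98 ± 0.11 (edgeR adjusted p = 7.31e-06) and -4.59 ± 0.16 (edgeR adjusted p = 2.43e-10), and the MS control level was 22.5-fold that under PEG.

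**Figure D3:**
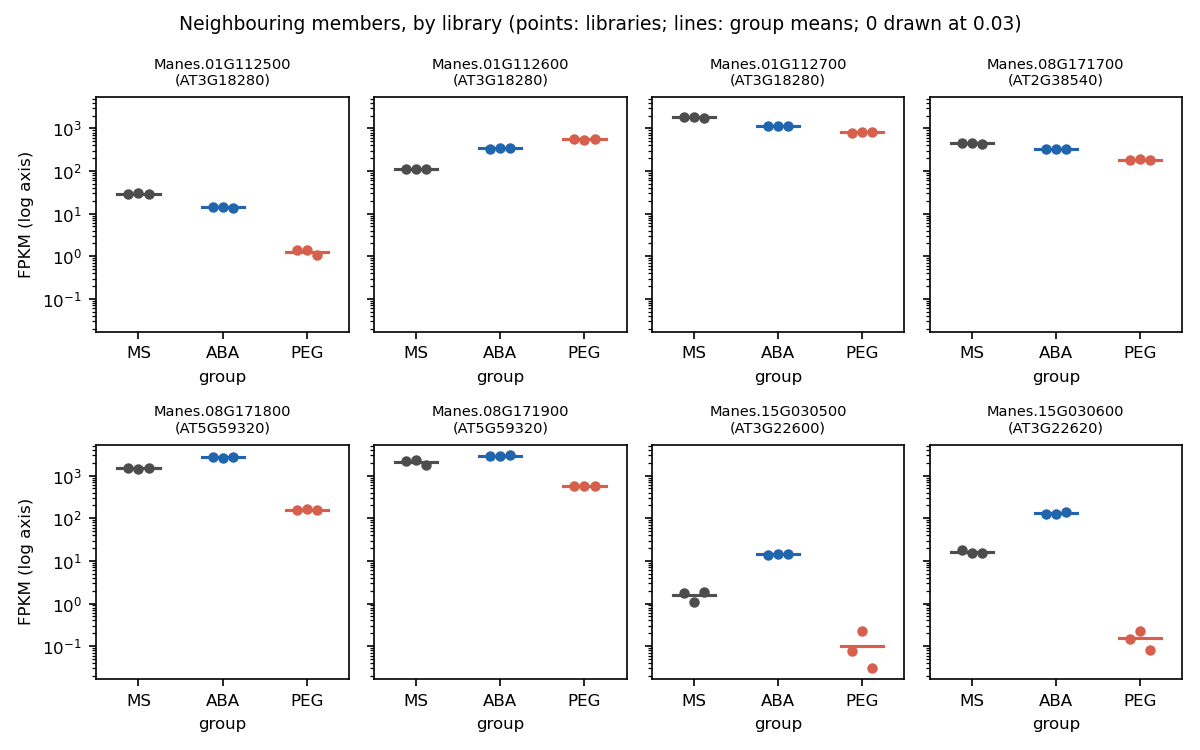
FPKM on a log axis of 8 members that lie beside another member, in 3 runs on chromosomes 1, 8 and 15, with points for libraries, lines for group means and a value of 0 drawn at 0.03. In the run on chromosome 1 the middle gene climbs from 111 to 567.5 FPKM while its neighbours descend, and in the pair on chromosome 15 both genes peak under ABA and come close to 0 under PEG.

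Elsewhere in the genome, Manes.14G106600 had 3.06, 2.15 and 2.60 FPKM in the MS control, 12.4, 11.3 and 14.03 with ABA and 30.2, 33.0 and 36.0 with PEG. Its libraries stepped up from group to group, by 2.33 ± 0.20 (edgeR adjusted p = 8.08e-07) under ABA and 3.52 ± 0.17 (edgeR adjusted p = 5.03e-09) under PEG. Manes.05G132600 had 4.66, 6.87 and 6.07 FPKM in MS control and 7.72, 6.34 and 7.60 in ABA libraries, where the groups overlapped and the change of 0.35 did not pass (edgeR adjusted p = 0.0571). That call turned with the setting, and it passed with DESeq2 size factors (0.38), without MS control replicate 2 (0.48) and with ABA replicate 2 left out (0.44). Under PEG Manes.05G132600 had 26.8, 29.2 and 25.4 FPKM and rose by 2.07 ± 0.13 (edgeR adjusted p = 6.55e-08). Manes.01G014800, named after its values were seen, fell from 238 to 246 FPKM in the MS control to 145 to 146 under ABA and 76.9 to 78.0 under PEG.

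The largest contrasts between the treatments lay in members whose nearest Arabidopsis genes, AT3G22600 and AT3G22620, encode GPI-anchored LTPs. Manes.15G030600 (chromosome 15, 2302673 to 2303763, nearest gene AT3G22620) had 17.6, 14.9 and 15.1 FPKM in the MS control, 129, 125 and 141 with ABA and 0.151, 0.224 and 0.0805 with PEG. Its neighbour Manes.15G030500 (chromosome 15, 2296666 to 2298619, nearest gene AT3G22600) had 1.78, 1.09 and 1.91 FPKM in the MS control, 13.7, 14.5 and 14.4 with ABA and 0.0770, 0.228 and 0 with PEG. Manes.03G176600 (chromosome 3, 26572356 to 26574568, nearest gene AT3G22600) had 6.48, 6.25 and 6.08 FPKM in the MS control, 50.1, 51.5 and 51.8 with ABA and 0.878, 0.965 and 0.695 with PEG. In all of them the ABA libraries stood highest and the PEG libraries lowest, without overlap of any pair of groups.

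Under ABA all rose, by 3.12 ± 0.079 (edgeR adjusted p = 2.07e-11) for Manes.15G030600, 3.21 ± 0.21 (edgeR adjusted p = 9.28e-08) for Manes.15G030500 and 3.09 ± 0.063 (edgeR adjusted p = 4.42e-12) for Manes.03G176600. Under PEG all fell, with changes of -6.73 ± 0.17 (edgeR adjusted p = 2.21e-11), -4.0 ± 0.45 (edgeR adjusted p = 8.30e-06) and -3.01 ± 0.09 (edgeR adjusted p = 7.05e-11) in the same order. The PEG values of the pair on chromosome 15 rest on 6 and 8 reads over 3 libraries, against 560 and 111 in the MS control and 4688 and 991 under ABA, so the size of their falls is loosely set. Without PEG replicate 2 the log2 fold change of Manes.15G030500 under PEG was -5.27. Manes.03G176600, with 77 reads under PEG, differed between PEG and ABA by -6.10 ± 0.081 (edgeR adjusted p = 3.40e-14). The third tested member with AT3G22600 as nearest gene, Manes.05G079500, was barely expressed (42, 10 and 9 reads in the MS control, ABA and PEG) and fell under ABA by 1.98 ± 0.63 (edgeR adjusted p = 0.0154), a call that did not pass without ABA replicate 1 (-1.74).

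Some other members close to anchored LTPs of Arabidopsis, named after their values were seen, had other orders of levels. Manes.11G111900 has AT3G43720 (LTPG2, which takes part in wax export) as nearest gene and was well expressed, at 74.4 to 82.8 FPKM in the MS control, 65.5 to 68.6 under ABA and 46.6 to 48.7 under PEG. It fell by 0.18 ± 0.049 (edgeR adjusted p = 0.00682) under ABA and by 0.86 ± 0.05 (edgeR adjusted p = 2.31e-08) under PEG. Manes.01G205700, with AT2G48130 (LTPG15, known from suberin of the seed coat) as nearest gene, had 33 reads in the MS control, 32 with ABA and 2 with PEG. Of the 2 members with AT5G64080 (xylogen protein 1, known from the differentiation of vessels) as nearest gene that were tested, Manes.06G010100 rose under both treatments, by 0.41 ± 0.064 (edgeR adjusted p = 1.58e-04) and 1.37 ± 0.062 (edgeR adjusted p = 2.62e-09). The other, Manes.14G166800, fell under ABA by 0.50 ± 0.083 (edgeR adjusted p = 2.58e-04), and its change of 0.18 under PEG did not pass (edgeR adjusted p = 0.0581).

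A further bifunctional member with a high level under ABA and a low one under PEG was Manes.01G074600 (chromosome 1, 20036878 to 20037858, nearest gene AT1G62790). It had 32.3, 30.7 and 25.3 FPKM in the MS control, 63.6, 61.4 and 59.9 with ABA and 3.04, 3.58 and 2.81 with PEG. The groups were well apart, with a change of 1.13 ± 0.087 (edgeR adjusted p = 3.37e-07) under ABA and of -3.35 ± 0.12 (edgeR adjusted p = 2.43e-10) under PEG. The difference between PEG and ABA was -4.48 ± 0.11 (edgeR adjusted p = 6.53e-12). Its relative with the same nearest gene, Manes.02G034500, moved little, by -0.34 and -0.42 on the log2 scale, both past the test. Manes.15G140300 (nearest gene AT2G37870) had the same shape as Manes.01G074600, with 6.11 to 8.90 FPKM in the MS control, 39.3 to 46.0 with ABA and 2.04 to 2.61 with PEG, and both it and Manes.02G034500 were named after their values were seen.

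**Figure D4:**
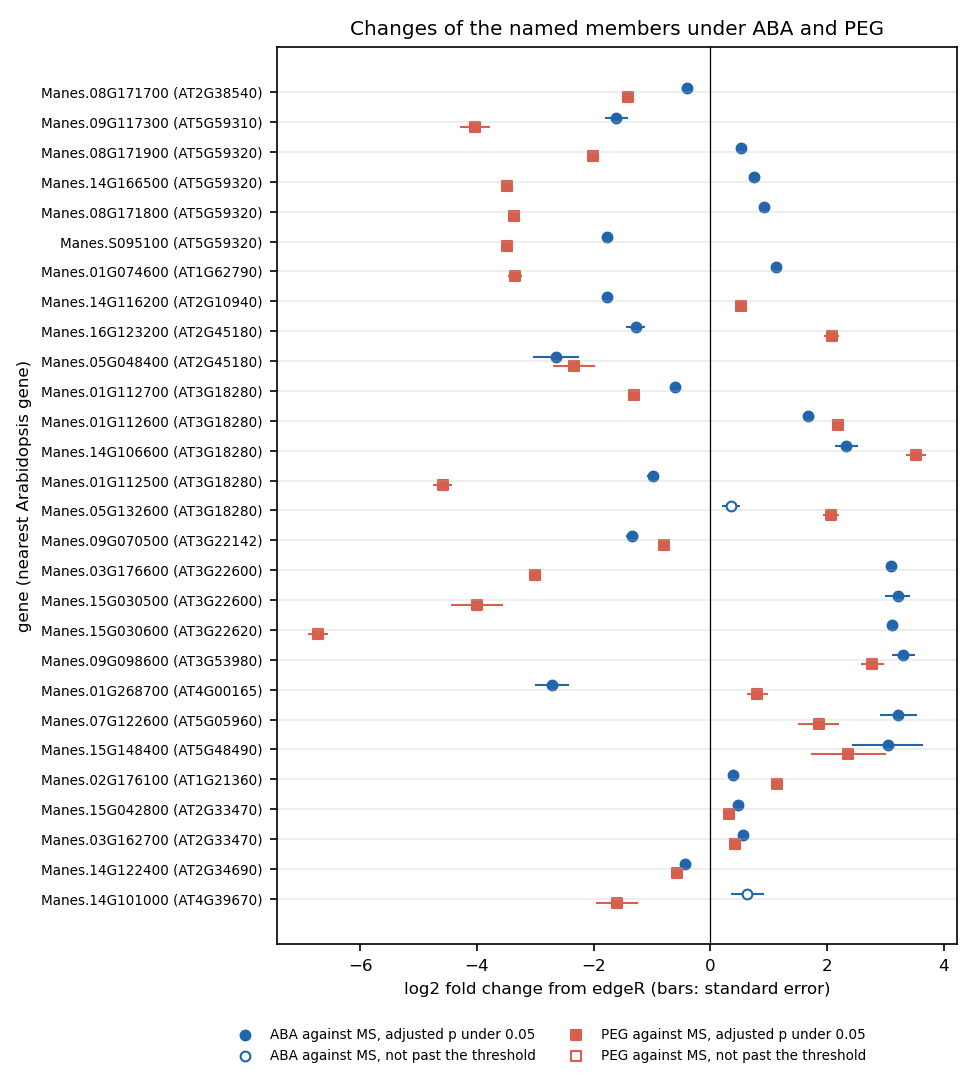
Log2 fold change of 28 members under ABA (blue circles) and PEG (red squares) against the MS control, with bars for the standard error, filled symbols for changes past the test and open symbols for changes that did not pass. Both contrasts use the same MS control libraries, and the widest gap between the symbols of 1 gene is that of Manes.15G030600, at 3.12 under ABA and -6.73 under PEG.

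Other members went the opposite way and fell under ABA and rose under PEG. Manes.14G116200 (chromosome 14, 10094363 to 10096067, nearest gene AT2G10940), the one with the highest mean FPKM among those that did both, had 98.0, 91.6 and 88.2 FPKM in the MS control, 26.0, 25.5 and 25.9 with ABA and 149, 149 and 143 with PEG. Its ABA libraries were the lowest and its PEG libraries the highest, with changes of -1.78 ± 0.045 (edgeR adjusted p = 2.04e-11) and 0.53 ± 0.042 (edgeR adjusted p = 3.30e-07). Manes.16G123200 (chromosome 16, 27497026 to 27497734) had 7.19, 7.58 and 8.78 FPKM in the MS control, 3.99, 2.97 and 2.37 with ABA and 34.8, 37.9 and 36.8 with PEG. Its nearest gene AT2G45180 (DRN1) acts in defence and salt tolerance in Arabidopsis. It fell by 1.28 ± 0.17 (edgeR adjusted p = 3.21e-05) under ABA and rose by 2.08 ± 0.13 (edgeR adjusted p = 4.13e-08) under PEG. Manes.01G268700 (nearest gene AT4G00165) had 3.51, 4.32 and 3.07 FPKM in the MS control, 0.658, 0.534 and 0.375 with ABA and 5.86, 7.84 and 7.14 with PEG, again lowest under ABA in every library. The change of Manes.01G268700 was -2.71 ± 0.29 (edgeR adjusted p = 6.46e-06) under ABA and 0.80 ± 0.18 (edgeR adjusted p = 0.00168) under PEG.

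AT2G45180 is the nearest gene of 8 members, of which 5 had no read and 2 were tested. The second of these, Manes.05G048400, had 7.02, 3.87 and 4.74 FPKM in the MS control, 0.844, 0.320 and 1.18 with ABA and 0.888, 1.03 and 1.42 with PEG. It was highest in the MS control, with changes of -2.65 ± 0.39 (edgeR adjusted p = 9.45e-05) under ABA and -2.34 ± 0.35 (edgeR adjusted p = 9.58e-05) under PEG. Between PEG and ABA its libraries overlapped, and the difference of 0.31 (edgeR adjusted p = 0.602) turned to -0.07 without ABA replicate 2.

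A few members were scarce in the MS control and rose under both treatments. Manes.09G098600 (nearest gene AT3G53980) had 2.01, 2.25 and 1.25 FPKM in the MS control, 16.9, 17.6 and 17.5 with ABA and 16.4, 12.5 and 12.2 with PEG. Every treated library was above every MS control library, with rises of 3.31 ± 0.20 (edgeR adjusted p = 3.37e-08) and 2.77 ± 0.20 (edgeR adjusted p = 1.63e-07). PEG was lower than ABA by 0.53 on the log2 scale (edgeR adjusted p = 0.00472), a call that was lost with limma on log2(FPKM + 1), at -0.33, and on log2(FPKM + 0.1), at -0.35. Manes.07G122600 (nearest gene AT5G05960) had 1.43, 1.33 and 0.280 FPKM in the MS control, 9.15, 7.59 and 9.93 with ABA and 4.24, 4.28 and 3.28 with PEG. MS control replicate 3 was its lowest library, and the changes were 3.22 ± 0.31 (edgeR adjusted p = 2.82e-06) and 1.86 ± 0.36 (edgeR adjusted p = 5.86e-04). Manes.01G078300 (nearest gene AT1G62500), named after its values were seen, rose under PEG alone. It had 0.0856 to 0.582 FPKM in the MS control, 0 to 0.401 under ABA and 3.10 to 3.97 under PEG. The change was 3.29 ± 0.47 (edgeR adjusted p = 6.21e-05) under PEG, and that of -0.20 under ABA did not pass (edgeR adjusted p = 0.842).

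AT3G22142 is the nearest gene of 4 members, all tested, with 1 up and 3 down under ABA and 2 up and 2 down under PEG. Over all genes tested, 66.3% were called under ABA and 70.7% under PEG. Manes.09G070500 (chromosome 9, 9801264 to 9801902) had 43.2, 39.4 and 32.2 FPKM in the MS control, 14.1, 14.7 and 14.3 with ABA and 24.7, 22.7 and 25.3 with PEG. It was lowest under ABA and intermediate under PEG, with changes of -1.35 ± 0.11 (edgeR adjusted p = 4.20e-07) and -0.79 ± 0.10 (edgeR adjusted p = 2.29e-05). The other members of the group, named after their values were seen, were Manes.06G046800, Manes.07G063600 and Manes.08G067800. Manes.06G046800 changed by -0.98 under ABA and 1.08 under PEG, Manes.07G063600 by 1.22 and 0.30, and Manes.08G067800 by -0.99 and -0.41, all past the test.

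AT5G48490, the nearest gene of 4 members, is the Arabidopsis gene DIR1-LIKE, a close relative of DIR1, a mobile protein of systemic acquired resistance. In 2 of the 3 tested members a single library stood apart from the other 2 of its group. Manes.15G148400 (chromosome 15, 11588272 to 11589023) had 0.764, 0.715 and 0.568 FPKM in the MS control, 6.18, 4.49 and 5.53 with ABA and 5.58, 5.21 and 0.671 with PEG. PEG replicate 3 lay within the range of the MS control, so these groups overlapped, while the other PEG libraries were close to those of ABA. The changes were 3.04 ± 0.61 (edgeR adjusted p = 9.77e-04) under ABA and 2.36 ± 0.64 (edgeR adjusted p = 0.00622) under PEG, and without PEG replicate 3 the latter was 2.84 ± 0.24 (edgeR adjusted p = 2.10e-06).

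Manes.11G113800 (chromosome 11, 21567254 to 21568023) had 20.7, 19.1 and 18.6 FPKM in the MS control, 16.0, 17.6 and 0.871 with ABA and 15.1, 15.4 and 17.3 with PEG, and was named after its values were seen. ABA replicate 3 was low and all other libraries lay close together. Neither change passed, with -0.69 ± 0.53 (edgeR adjusted p = 0.269) under ABA and -0.42 ± 0.51 (edgeR adjusted p = 0.478) under PEG. Without ABA replicate 3 the change under PEG was -0.42 ± 0.089 (edgeR adjusted p = 0.00149) and passed, and that under ABA was -0.15 ± 0.10 (edgeR adjusted p = 0.226). With 0.1 added to each FPKM value, ABA replicate 3 was 16.6-fold below the next library in Manes.11G113800. On the same scale, PEG replicate 3 was 6.88-fold below the next library in Manes.15G148400. A library was taken as apart if at least 4-fold from both others of its group, with those 2 within 4-fold of each other. Such a library was found in 2 of 41 members and in 279 of 18248 genes (1.53%) that reached 5 on this scale in a library. The third tested gene, Manes.12G054000, also named after its values were seen, had 6.08 to 7.37 FPKM in the MS control, 6.05 to 6.78 under ABA and 16.9 to 19.0 under PEG, and rose under PEG by 1.26 ± 0.11 (edgeR adjusted p = 7.84e-07).

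**Figure D5:**
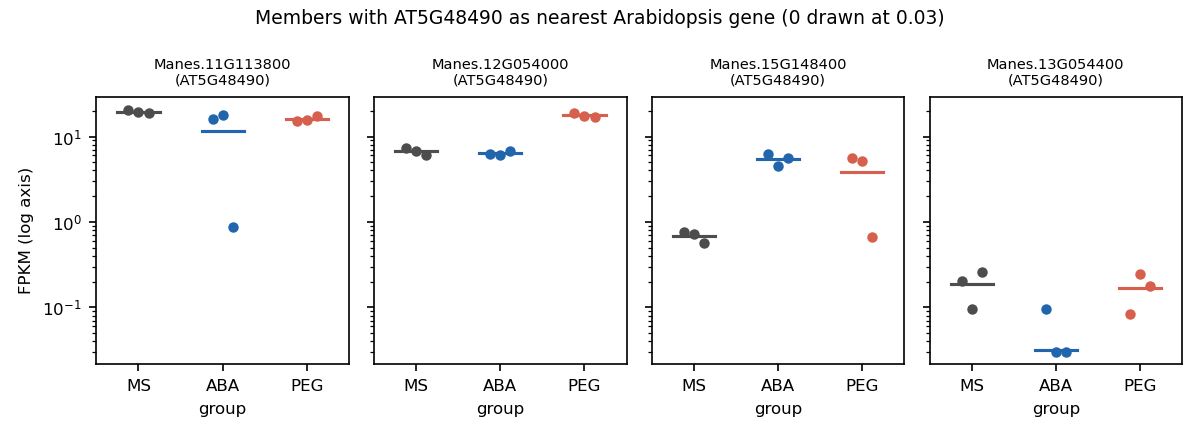
FPKM on a log axis of the 4 members with AT5G48490 as nearest gene, with points for libraries, lines for group means and a value of 0 drawn at 0.03. ABA replicate 3 of Manes.11G113800 (0.871 FPKM) and PEG replicate 3 of Manes.15G148400 (0.671 FPKM) stand far below the other libraries of their groups.

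The 4 other tested members were named after their values were seen. Manes.10G152900 (nearest gene AT2G44300) had 0.741 to 1.301 FPKM in the MS control, 4.69 to 5.21 under ABA and 0.896 to 1.45 under PEG. It was high under ABA alone, with a rise of 2.37 ± 0.23 (edgeR adjusted p = 2.70e-06), while PEG overlapped with the MS control. Manes.01G089900 (nearest gene AT4G33550) was low under PEG alone, with 27.6 to 29.6 FPKM in the MS control, 22.2 to 28.5 with ABA and 5.06 to 6.24 with PEG, and fell by 2.52 ± 0.12 (edgeR adjusted p = 4.75e-09). Manes.15G105800 (nearest gene AT1G55260, of the anchored type) had 21.2 to 23.9 FPKM in the MS control, 18.9 to 20.7 with ABA and 29.3 to 32.5 with PEG and rose under PEG by 0.30 ± 0.066 (edgeR adjusted p = 0.00160). Manes.02G037400 (nearest gene AT4G12490) rested on 20, 42 and 79 reads and rose under PEG by 1.68 ± 0.40 (edgeR adjusted p = 0.00254). Its change under ABA was 1.11 ± 0.44 (edgeR adjusted p = 0.0451) with overlapping groups, and did not pass without MS control replicate 2 (0.77), MS control replicate 3 (1.08), ABA replicate 2 (0.72) or PEG replicate 1 or 3 (1.11 in both). The ABA call of Manes.02G037400 was also lost without scaling beyond library size (1.04), without the filter on low counts (1.10), with the DESeq2 Wald test (1.13), with the 2 compared groups alone (1.11) and with the replicate block (1.08).

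Summed over the 6 glycolipid transfer proteins, the level was 93.0 ± 2.59 FPKM (SD, n = 3) in the MS control, 103 ± 0.99 FPKM (SD, n = 3) with ABA and 109.8 ± 7.80 FPKM (SD, n = 3) with PEG. Of the 5 tested, 3 rose and 1 fell under ABA and 3 rose and 2 fell under PEG. Over all genes tested, 66.3% were called under ABA and 70.7% under PEG. Manes.02G176100, described as glycolipid transfer protein 2, had 4.10, 3.69 and 4.15 FPKM in the MS control, 4.98, 4.85 and 5.07 with ABA and 9.54, 9.14 and 10.3 with PEG. It stepped up from group to group without overlap, by 0.38 ± 0.083 (edgeR adjusted p = 0.00166) under ABA and 1.14 ± 0.08 (edgeR adjusted p = 1.22e-07) under PEG. The copies described as glycolipid transfer protein 1, Manes.15G042800 and Manes.03G162700, both rose. Manes.15G042800 rose by 0.47 ± 0.075 (edgeR adjusted p = 1.84e-04) under ABA and 0.33 ± 0.075 (edgeR adjusted p = 0.00207) under PEG, and Manes.03G162700 by 0.55 ± 0.063 (edgeR adjusted p = 1.17e-05) and 0.42 ± 0.063 (edgeR adjusted p = 9.15e-05).

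Manes.14G122400 has AT2G34690 (ACD11) as nearest gene, a ceramide-1-phosphate transfer protein whose loss sets off cell death in Arabidopsis. It had 35.7, 34.6 and 33.5 FPKM in the MS control, 24.0, 26.0 and 23.6 with ABA and 28.2, 23.9 and 24.4 with PEG. All treated libraries were below all MS control libraries, and the changes were -0.43 ± 0.069 (edgeR adjusted p = 1.83e-04) and -0.57 ± 0.069 (edgeR adjusted p = 1.42e-05). Manes.14G101000 (nearest gene AT4G39670) rested on 81, 121 and 32 reads. It fell under PEG by 1.60 ± 0.36 (edgeR adjusted p = 0.00170). Under ABA its change of 0.63 did not pass (edgeR adjusted p = 0.0657), but passed with the 2 compared groups alone (0.64) and without PEG replicate 1 or 3 (0.63 in both). Between PEG and ABA, Manes.15G042800, Manes.03G162700 and Manes.14G122400 had differences of -0.14, -0.13 and -0.14, none past the test (edgeR adjusted p = 0.103, 0.0700 and 0.0848), and their sign changed with no scaling beyond library size (0.06, 0.06 and 0.05). Other settings brought single differences past the test. With DESeq2 size factors these were Manes.03G162700 (-0.16, edgeR adjusted p = 0.0332) and Manes.14G122400 (-0.17, edgeR adjusted p = 0.0444), and with the 2 compared groups alone Manes.03G162700 (-0.16, edgeR adjusted p = 0.0437). Without PEG replicate 1 Manes.14G122400 (-0.22, edgeR adjusted p = 0.0120) and Manes.15G042800 (-0.22, edgeR adjusted p = 0.0133) passed.

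Members lay on 17 chromosomes and 2 scaffolds, and 41 of them stood in 13 runs of neighbours in gene order. Expression in the leaf differed from run to run. The longest run, 10 genes on chromosome 1 from 20399170 to 20485759, had 1 tested gene, Manes.01G078300, and 5 genes with no read. Their nearest Arabidopsis genes include AT2G45180, AT4G12510 and AT4G12520. A run of 5 genes on chromosome 5 from 4032200 to 4048869, all with AT4G33355 as nearest gene, had 0 tested genes and 4 with no read, and 4 genes with AT3G18280 as nearest gene on chromosome 2 from 5269338 to 5296743 had 0 tested and 2 with no read. The runs on chromosome 1 from 23302715, on chromosome 8 from 33126295 and on chromosome 15 from 2296666 were tested in full. These 8 genes include 5 of the 6 most expressed members.

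Among the members with too few reads for the test, some had 0 reads in a whole group. The limit that a count of 0 allows, 3 reads over the 3 libraries of a group, gives a bound on the fold. It covers counting error in the group with 0 reads only. The few reads of the other group are taken as exact, so the true folds can lie below the bounds given here. Manes.04G094800 (nearest gene AT5G13900) had 4, 6 and 2 reads in the MS control libraries and 0 under PEG, at least 4.84-fold lower. Its ABA libraries had 9, 10 and 0 reads, so that ABA replicate 3 overlapped with PEG and the bound of at least 7.97-fold lower under PEG than under ABA rests on the other 2 libraries. Manes.01G046600 (AT1G48750) had 8, 5 and 3 reads in the MS control libraries and 0 under PEG, at least 6.46-fold lower. Manes.05G079400 (AT3G22600) had 5, 2 and 3 reads in the MS control libraries and 0 under PEG, at least 4.04-fold lower. Manes.01G205600 (AT2G48140) had reads in MS control replicates 2 and 3 only (5 and 4), with 0 in MS control replicate 1 and in all ABA and PEG libraries, so the groups overlapped and no fold is given. Not every member with too few reads was low under PEG. Manes.02G037500 (AT1G62500) had 1, 8 and 27 reads in the MS control, ABA and PEG, with every PEG library above every MS control library in FPKM. These genes were named after their values were seen, and none has a test.

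Lists that hold genes which make or move lipids, those of the cuticle among others, were counted beside the members. Over all tested genes 66.3% were called under ABA and 70.7% under PEG. Among 22 tested genes of very-long-chain fatty acid elongation, the pathway that makes wax precursors, 11 rose and 8 fell under ABA and 6 rose and 12 fell under PEG, with median log2 fold changes of 0.22 and -0.26 and 86.4% and 81.8% called. Of these, the 3-ketoacyl-CoA synthases Manes.05G017600 (KCS1) and Manes.14G102100 (KCS6, which makes wax precursors in Arabidopsis) had 57.9 ± 2.25 and 120.4 ± 5.66 FPKM (SD, n = 3) in the MS control. Under ABA they had 291.7 ± 5.53 and 248 ± 5.04 FPKM (SD, n = 3), and under PEG 6.64 ± 0.17 and 22.7 ± 0.997 FPKM (SD, n = 3). Both rose under ABA and fell under PEG. Manes.16G087600 (KCS10), with a higher level in the MS control than either (179.8 ± 3.13 FPKM, SD, n = 3), fell under ABA to 72.2 ± 1.34 FPKM (SD, n = 3; log2 fold change -1.25, edgeR adjusted p = 1.20e-11). Under PEG Manes.16G087600 had 181.6 ± 4.06 FPKM (SD, n = 3), with a log2 fold change of -0.12 (edgeR adjusted p = 0.00294). Among 40 tested genes of wax and cutin synthesis, 17 rose and 11 fell under ABA and 13 rose and 12 fell under PEG (medians 0.15 and 0.05), 70.0% and 62.5% called, which is near the share over all genes. Of 30 tested ABC transporters of the G type and acyl-CoA binding proteins, 19 rose and 9 fell under ABA and 8 rose and 16 fell under PEG (medians 0.28 and -0.23), 93.3% and 80.0% called. Only some proteins of these families carry cuticle lipids to and across the plasma membrane, and the list, found by words, does not separate them. Lipid transfer proteins of other folds, Sec14-like and oxysterol-binding, had 43 tested genes, with 22 up and 11 down under ABA and 21 up and 12 down under PEG (medians 0.27 and 0.18), 76.7% called under each.

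The ABA and water-stress markers had 52 tested genes, and 21 rose and 16 fell under ABA while 8 rose and 37 fell under PEG. Their summed level was 1594 to 1999.7 FPKM in the MS control, 3377 to 3432 under ABA and 1099 to 1105 under PEG, the same order of groups as the summed level of the named LTPs. The search also takes in LEA hydroxyproline-rich glycoproteins, and without them, a choice made after seeing the data, 16 of 24 rose and 5 fell under ABA and 2 rose and 20 fell under PEG. The genes described as highly ABA-induced PP2C gene 3 were examples, and Manes.02G128000 had 53.2 ± 2.38, 444 ± 6.13 and 5.70 ± 0.137 FPKM (SD, n = 3) in the MS control, ABA and PEG. The part of these lists in the changes of the members was not tested.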

How the data were processed

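Leaf RNA-seq of 9 libraries (3 each for the MS control, ABA and PEG) was analysed from 1 table. The deposited table gives, for 33033 genes of cassava genome v6.1, whole read counts per gene and library, and the FPKM values that the authors calculated. HISAT2 2.0.4 and StringTie 1.3.0 are listed in the submitters' processing notes. The sources used here do not name the counting tool, its strand setting or its treatment of reads with several matches. Columns of the authors' own comparisons were not used. Groups come from the treatment in the labels.

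Counts were filtered with filterByExpr, scaled by TMM and fitted with edgeR 4.0.16 (glmQLFit and glmQLFTest, R 4.3.3) in 1 model of the 3 group means, with Benjamini-Hochberg adjustment over 23984 genes, which was checked on simulated counts. The simulation held few changed genes, as many up as down, and the same spread for every gene. Most genes were called in these data, so it cannot show how the scaling or the error rate held here. FPKM values are given per library or as mean ± SD. The precision of a value follows from its reads, and limits from counts of 0 cover counting error of the group with 0 reads only. Replicates of a group differed by more than sampling noise (median chi-square over genes 0.663 to 0.838, where sampling gives 0.455), so each was counted.

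Members are genes whose description holds lipid transfer protein or lipid-transfer protein. Named members are the 6 with the highest mean FPKM, the 6 largest rises and 6 largest falls of each treatment and the 4 largest differences between PEG and ABA (past the test, at least 5 FPKM in a group), and all tested glycolipid transfer proteins. Any other is said to be named after its values were seen, except LTPs and relatives that complete a group of the same nearest gene. Gene lists and markers were found by words in the descriptions. Members and lists were chosen with earlier results of these data known, so lists have counts and medians and no test. Alternatives were other scaling, no filter, DESeq2 1.42.0, limma 3.58.1 on log2(FPKM + 1) and log2(FPKM + 0.1), a replicate block, the 2 compared groups alone and each library left out. Sequence features of the members were not analysed here.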

Additional observations from a re-analysis of the deposited data

How the results depend on the processing

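The counts of members that rose, fell or changed at least 2-fold stayed within 1.5 times the reported count under every alternative. Under PEG 26 to 32 members fell and 18 to 20 rose, and under ABA 19 to 20 fell and 19 to 21 rose, over all alternatives that kept the 9 libraries or the 2 groups. With single libraries left out these were 26 to 28, 19 to 21, 18 to 20 and 20 to 21. Of the called members, 37 of 39 under ABA, 43 of 45 under PEG and 35 of 38 between PEG and ABA were called under all alternatives, and 0 were called in the opposite direction. The exceptions were Manes.05G079500 and Manes.02G037400, then Manes.01G205700 and Manes.15G148400, which the filter removed when the 2 groups were fitted alone, and Manes.01G205700, Manes.02G010200 and Manes.09G098600. Replicate numbers did not pair the libraries, since deviations of same-numbered libraries correlated at -0.0384 to 0.068 and 6 of 18 best matches had the same number. With the replicate block 19 members rose and 19 fell under ABA and 19 rose and 26 fell under PEG, and the block took away the call of Manes.02G037400 under ABA (log2 fold change 1.08). Without scaling beyond library size, the median log2 fold change of all genes was -0.0675 under ABA, 0.138 under PEG and 0.243 between PEG and ABA. The split of calls over all genes then went from 8537 up and 8409 down to 10440.0 up and 6682 down under PEG, and from 9377 and 8534 to 11962 and 6347 between PEG and ABA. Relative to these shifts, differences between PEG and ABA of 3 glycolipid transfer proteins that had not passed changed sign, with 0.06394 without scaling, 0.0603 and 0.06224 with limma (pseudocounts 1 and 0.1) for Manes.03G162700, 0.05432, 0.04977 and 0.05147 for Manes.14G122400, and 0.05597, 0.04944 and 0.05033 for Manes.15G042800. Differences of the same 3 genes passed in 5 cases, with -0.1606 (DESeq2 size factors) and -0.1563 (2 groups alone) for Manes.03G162700, -0.1702 (DESeq2 size factors) and -0.2172 (without PEG replicate 1) for Manes.14G122400, and -0.2216 (without PEG replicate 1) for Manes.15G042800. The difference of Manes.05G048400 ranged from -0.0658 (without ABA replicate 2) to 0.7273 with single libraries left out. The cause was not tested.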
